A study of Drosophila melanogaster with 2 samples.

Results

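The 73 genes described here encode proteins of the Drosophila melanogaster mitochondrial ribosome. They were chosen by name, as the protein-coding genes of the Ensembl annotation whose symbol is mRpL or mRpS followed by a number, out of 13945 protein-coding genes in all. Of these, 47 belong to the large subunit and 26 to the small subunit. Chromosome arm 3R holds 21 of them, 3L holds 17, 2L and 2R hold 12 each, X holds 11, and chromosome 4 holds 0. The symbol rule misses bonsai and tko, which encode the mitochondrial relatives of bacterial ribosomal proteins of the small subunit under older names. The rule uses the symbol alone and no measured value, though it was written with earlier results of these data known. The 73 genes are called members where they are set against others.

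What was measured is the binding of CG17806, a zinc-finger protein, to the chromatin of whole pupae aged 24 hours, by chromatin immunoprecipitation with sequencing (ChIP-seq). The animals belong to a transgenic line in which green fluorescent protein (GFP) is fused to the C-terminal end of CG17806, and sonicated chromatin was precipitated with an antibody against GFP. The labels give 1 group with 2 biological replicates and no recorded sex, so no condition can be set against another and peaks can only be placed against the genome and compared between replicates. Whole animals mix many tissues, and a peak does not say in which of them the protein was bound. The authors deposited 4 lists on the dm6 build. Each replicate and the pool of both gave 30000 peaks, and a list thresholded by the authors on the irreproducible discovery rate (IDR), a measure of how well peak ranks repeat between replicates, gave 7645. These are the 7645 pooled peaks of highest signal, and a single peak among them can still rank very differently in the replicates. Read depth is unknown, because the lists hold no read counts. Each peak has a summit and a signal score, and the signal served only to rank peaks within a list, with 1 as the highest. A gene was counted as bound in a list when any of its annotated start sites had a summit at most 500 bp away. Offsets are distances from the nearest start site of the gene in bp, with negative values upstream.

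Mitochondria translate a small set of proteins of the respiratory chain from their own genome on ribosomes that resemble those of bacteria. In animals all proteins of these ribosomes are encoded in the nucleus, made in the cytosol and imported. Many have a bacterial counterpart with the same number, and others were added in the mitochondrial lineage. Flight muscle and other tissues that are built during the pupal stage are rich in mitochondria. Many housekeeping genes of the fly lie head to head with a neighbour on the other strand, so that a short stretch of DNA serves as the promoter of both genes.

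The DNA at the IDR summits of 8 of these genes is shown first, because the position and base composition of these stretches carry much of what follows. Each line gives bases of the dm6 (Release 6) reference from the RefSeq copy of that assembly, 5′ to 3′ on the strand of the mitochondrial ribosomal protein gene. Each is centred on the summit, or clipped where an annotated exon begins. Capitals mark the longest unbroken run of A and T. The first 5 are the strongest of the sequences shown and lie between divergent genes, mRpS21 lies between divergent genes but ranks low, and mRpL19 and mRpL10 share their summit with no other gene.
mRpS10, chr3R:15229478-15229598, plus strand: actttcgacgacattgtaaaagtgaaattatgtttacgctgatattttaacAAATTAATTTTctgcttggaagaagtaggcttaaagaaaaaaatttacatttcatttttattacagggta
mRpS23, chr2L:13835399-13835519, minus strand: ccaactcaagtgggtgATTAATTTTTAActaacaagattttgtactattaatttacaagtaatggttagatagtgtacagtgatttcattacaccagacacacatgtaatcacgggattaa
mRpL24, chr2L:4945422-4945542, minus strand: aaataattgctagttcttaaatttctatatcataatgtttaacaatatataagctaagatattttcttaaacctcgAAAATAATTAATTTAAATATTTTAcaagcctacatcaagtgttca
mRpS2, chr2L:4850490-4850610, minus strand: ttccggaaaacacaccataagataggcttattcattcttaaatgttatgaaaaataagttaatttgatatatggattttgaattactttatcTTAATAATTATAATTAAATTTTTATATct
mRpL20, chr3L:13018074-13018194, minus strand: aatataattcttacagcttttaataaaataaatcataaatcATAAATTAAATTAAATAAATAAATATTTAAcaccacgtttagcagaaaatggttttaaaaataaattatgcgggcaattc
mRpS21, chr3R:13381866-13381986, minus strand: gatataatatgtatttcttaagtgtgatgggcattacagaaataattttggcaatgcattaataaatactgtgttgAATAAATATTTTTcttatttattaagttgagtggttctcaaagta
mRpL19, chr3R:8673997-8674108, plus strand: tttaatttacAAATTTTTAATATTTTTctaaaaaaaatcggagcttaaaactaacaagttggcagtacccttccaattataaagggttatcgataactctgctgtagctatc
mRpL10, chr2L:203654-203774, plus strand: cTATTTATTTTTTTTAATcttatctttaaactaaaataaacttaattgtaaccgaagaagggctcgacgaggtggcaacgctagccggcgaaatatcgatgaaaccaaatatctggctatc
The A and T bases made up 73.6% of the stretch at mRpS10, 79.3% at mRpL24, 80.2% at mRpS2 and 81.0% at mRpL20. The lowest share among these 8 was 64.5% at mRpL10, which also carries the letters TATCGA.

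CG17806 peaks lay at a minority of these genes in the IDR list and at more of them in the wider lists, which include weak calls. Of the 73 genes, 26 were bound in the IDR list, or 35.6% (Wilson 95% interval 25.6 to 47.1), where the same rule called 19.5% of all protein-coding genes. The pooled list had a summit at 55 of them, 75.3% against 45.3% of all protein-coding genes. In replicate 1 the count was 54, or 74.0%, against 47.2%. In replicate 2 it was 44, or 60.3%, against 42.1%. Both replicate lists had a summit at 39 of the genes, which is 53.4% against 33.1%. The members' shares were thus above the shares of all protein-coding genes in each of these lists. The intervals cover counting error only, genes that share a promoter are not independent, and no test of the set was made.

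**Figure D1:**
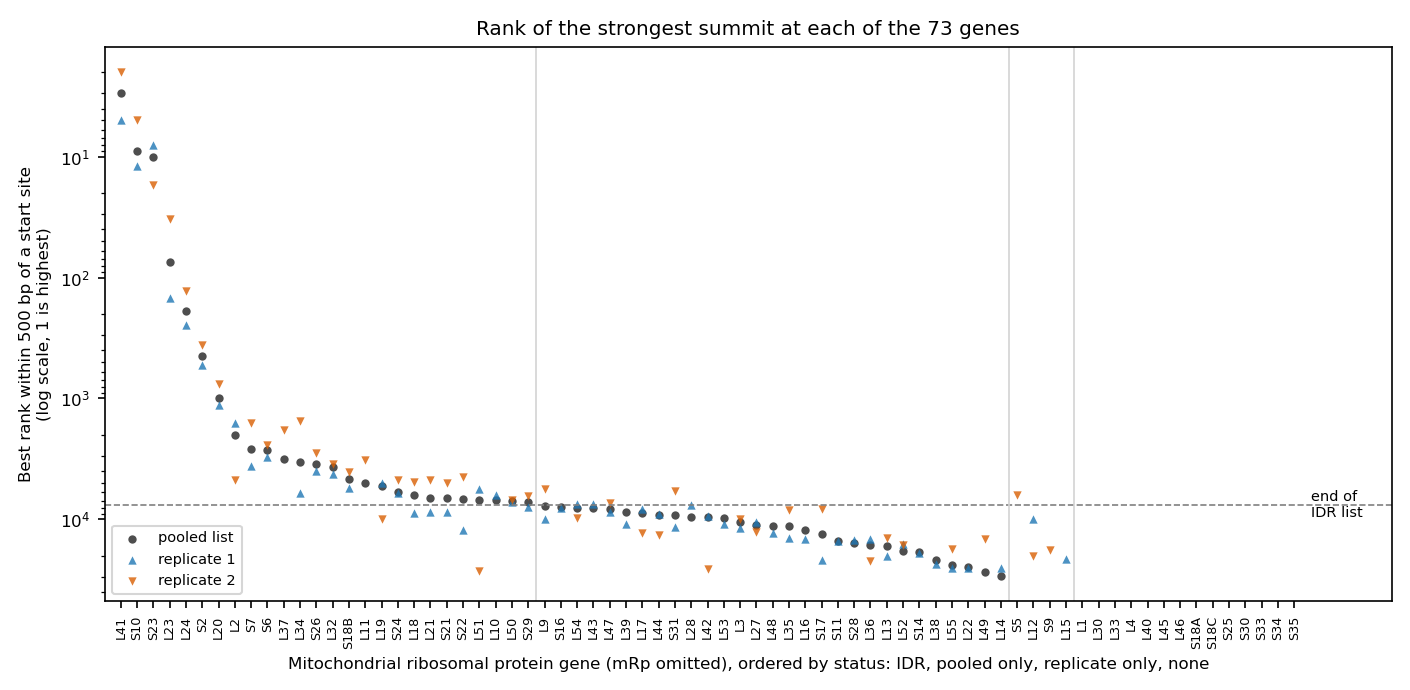
Rank of the strongest summit within 500 bp of a start site for each of the 73 genes, in the pooled list and in each replicate list, on an inverted log axis with rank 1 at the top. Genes are ordered by status along the horizontal axis, grey vertical lines separate the 26 with an IDR summit, the 29 with a pooled summit only, the 4 with a replicate summit only and the 14 with none, and the dashed line marks the 7645 peaks of the IDR list.

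The 7 strongest mitochondrial ribosomal protein promoters stood among the 1911 IDR peaks of highest signal. Those 1911 peaks called 9.59% of the 73 genes and 6.00% of all protein-coding genes. The highest was mRpL41 (FBgn0034001), which encodes a large subunit protein without a bacterial counterpart. Its summit, in the peak at chr2R:15217551-15217983 and 137 bp upstream of the gene, ranked 3 in the IDR list, 5 in replicate 1 and 2 in replicate 2. No other coding gene starts within 500 bp of that summit, though the start of the non-coding lncRNA:CR44463 lies 441 bp from it.

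mRpS10 (FBgn0038307), whose bacterial relative sits in the head of the small subunit, had its summit in the peak at chr3R:15229342-15229735. That summit ranked 9 in the IDR list, 12 in replicate 1 and 5 in replicate 2. It lies 127 bp upstream of mRpS10 and 130 bp upstream of Art3, an arginine methyltransferase gene on the other strand, so it sits almost midway between start sites that are 257 bp apart. mRpS23 (FBgn0260407), a small subunit gene of the mitochondrial lineage, ranked 10 in the IDR list, 8 in replicate 1 and 17 in replicate 2. Here the summit was 387 bp upstream of mRpS23 and only 105 bp upstream of CenG1A, which encodes a GTPase-activating protein for Arf. The neighbour's start site is thus the nearer of the pair.

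mRpL23 (FBgn0035335), the relative of a bacterial protein at the exit of the nascent chain, ranked 75 in the IDR list, 148 in replicate 1 and 33 in replicate 2. Its summit was the only one of the 26 to lie downstream of the member's start site, at 81 bp, and it is 131 bp upstream of CG9004. mRpL24 (FBgn0031651), another large subunit protein with a bacterial counterpart, ranked 189 in the IDR list, 246 in replicate 1 and 130 in replicate 2. The summit lies 121 bp upstream of it and 97 bp upstream of betaggt-I, which encodes the beta subunit of an enzyme that attaches geranylgeranyl lipids to proteins. mRpS2 (FBgn0031639), a small subunit gene with a bacterial counterpart, ranked 450 in the IDR list, 527 in replicate 1 and 360 in replicate 2. The summit lies 131 bp upstream of it and 91 bp upstream of Mon1, a gene of endosome maturation. mRpL20 (FBgn0036335), the relative of a bacterial protein of large subunit assembly, ranked 986 in the IDR list, 1127 in replicate 1 and 767 in replicate 2. The summit lies 267 bp upstream of it and only 132 bp upstream of Icmt, an isoprenylcysteine carboxyl methyltransferase gene. Of these 7 promoters, 6 ranked within the first 1000 in both replicates. In relative terms the replicates differed most at mRpL23, with ranks of 148 and 33.

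The next 7 promoters ranked from 2009 to 3695 in the IDR list, and all of them are divergent. mRpL2, whose bacterial relative helps form the peptidyl transferase centre, ranked 2009, with 1596 in replicate 1 and 4773 in replicate 2. Its summit lies 317 bp upstream and 119 bp upstream of FoxK, a forkhead transcription factor gene. mRpS7, the relative of a bacterial protein of the small subunit head, ranked 2622, with 3628 in replicate 1 and 1595 in replicate 2. The summit lies 171 bp upstream of it and 229 bp upstream of Cdk1, the gene of the mitotic kinase. mRpS6 ranked 2696, with 3068 and 2444 in replicates 1 and 2, and its summit lies 129 bp upstream of it and 319 bp upstream of Cip4, an F-BAR protein gene. For mRpS7 and mRpS6 the member's start site is thus the nearer of the pair.

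mRpL37, a gene of the mitochondrial lineage, ranked 3142 in the IDR list and 1827 in replicate 2, and replicate 1 had no summit within 500 bp of its start site. The summit lies 117 bp upstream of mRpL37. mRpL34 ranked 3344, with 6007 in replicate 1 and 1526 in replicate 2, and shares its summit, at −151 bp, with Dg (dystroglycan). mRpS26 ranked 3514, with 3991 and 2830 in replicates 1 and 2, at −184 bp beside CG13698. mRpL32 ranked 3695, with 4186 and 3459, and shares its summit, at −100 bp, with qless, which encodes an enzyme that makes the side chain of coenzyme Q. In this group mRpL2, mRpL34 and mRpL37 differed most between the replicates.

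The remaining 12 promoters ranked between 4641 and 7245. mRpS18B, 1 of 3 fly genes for proteins of the bacterial S18 family, ranked 4641, with 5487 in replicate 1 and 4058 in replicate 2, and shares its summit, at −93 bp, with Kua. mRpL11, whose bacterial relative belongs to the GTPase-associated region of the ribosome, ranked 5035 in the IDR list and 3223 in replicate 2, with no replicate 1 summit within 500 bp. Its summit lies 144 bp upstream of mRpL11 and 18 bp inside HtrA2, a mitochondrial protease gene. mRpS24 ranked 5946, with 6104 and 4731 in replicates 1 and 2, at −248 bp beside Apc2 of the Wnt pathway. mRpL18 ranked 6344, with 8828 and 4924, and its start site is only 20 bp from that of Taz, the gene of the cardiolipin-remodelling enzyme tafazzin. The summit is 126 bp upstream of mRpL18 and so 106 bp inside Taz.

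mRpL21 ranked 6658, with 8709 in replicate 1 and 4708 in replicate 2, and shares its summit, at −169 bp, with rept, which encodes the ATPase reptin. mRpS21 ranked 6678, with 8644 and 4970, at −117 bp beside the DnaJ chaperone gene Droj2. mRpS22 ranked 6745 in the IDR list and 4428 in replicate 2, beside CG5003. Its only replicate 1 summit, at rank 12166, was 34 bp upstream of the start site and over 100 bp from the IDR summit, which lies 136 bp upstream. Of the promoters described so far, only mRpS23 and mRpL2 ranked higher in replicate 1, and mRpL37 and mRpL11 had no summit there. Like the rest, mRpL21, mRpS21 and mRpS22 ranked higher in replicate 2 than in replicate 1.

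The reverse held for 4 of the weakest. mRpL51 ranked 6942, with 5608 in replicate 1 and 27022 in replicate 2, where its −log10 q was 0.201. The summit is at −58 bp, and the gene starts 31 bp from Uba4, a gene of tRNA thiolation. mRpL10, the relative of the bacterial stalk-base protein, ranked 6990 in the IDR list, at −65 bp, and 6319 in replicate 1, and replicate 2 had no summit within 500 bp. mRpL50 ranked 6994, with 7225 in replicate 1 and 16880 in replicate 2 (−log10 q of 0.686), at −161 bp beside mei-P22, a gene of meiotic break formation. mRpS29, the relative of human DAP3, ranked 7245, with 7879 and 15781 (−log10 q of 0.806). Its summit was the most distant of the 26, at −490 bp, and lies 147 bp upstream of rad50, a DNA repair gene. Replicate 2 also had a summit of rank 6977 at −35 bp of mRpL50 and one of rank 6431 at −372 bp of mRpS29. At the IDR summit itself, these 4 promoters ranked lower in replicate 2 or had no summit there.

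mRpL19, whose bacterial relative lies at the subunit interface, was the other gene to hold a summit alone. It ranked 5293, at −52 bp, and the nearest replicate summits ranked 18379 in replicate 1 and 9857 in replicate 2. Replicate 1 also had a summit of rank 5014 at −181 bp. The replicates thus placed their main summits at different points of this promoter.

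**Figure D2:**
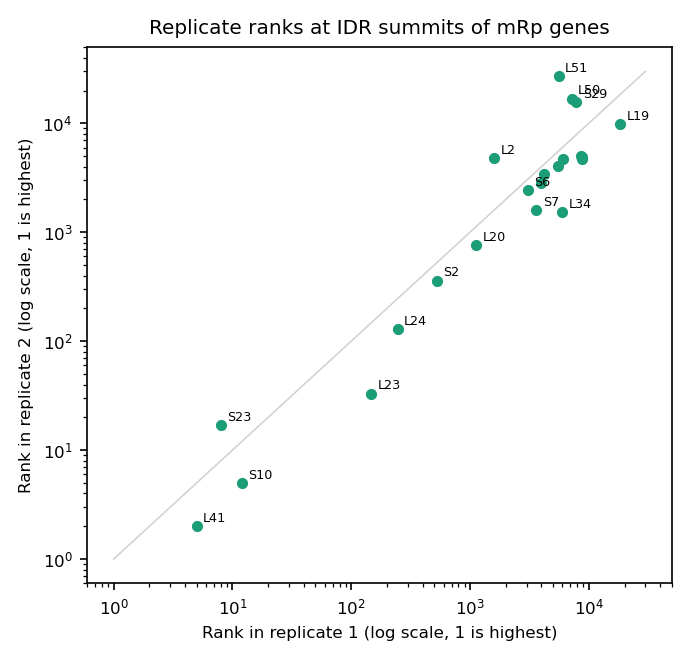
Rank in replicate 1 against rank in replicate 2, both on log axes with 1 as the highest. Points are the 22 IDR summits at mitochondrial ribosomal protein genes with a partner at most 100 bp away in both replicates. The mRp prefix is dropped and some labels are left out where points crowd. The grey line marks equal rank; the 6 summits within the first 1000 in both lists lie at the lower left, while mRpL51, mRpL50 and mRpS29 lie far above it, with a lower standing in replicate 2.

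Of the 26 IDR summits, 23 had a replicate 1 summit within 100 bp, 25 had a replicate 2 summit and 22 had both. The median distance to the IDR summit was 5 bp in replicate 1 and 13 bp in replicate 2. Over the 22, Spearman's rho between the ranks was 0.851, which describes summits that share their libraries and a control, and the IDR list was itself made from the replicate lists. The top 7645 peaks of replicate 1 alone called 21 of the 73 genes, 28.8% against 19.3% of all protein-coding genes. Those of replicate 2 called 27, or 37.0%, against 20.5%. The excess over all protein-coding genes was therefore 9.50 percentage points in replicate 1 and 16.5 in replicate 2.

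Within the IDR list the 26 summits did not gather at the top. Their median rank was 3604, with a range from 3 to 7245, and that of the other 2687 bound coding genes was 3451. The 1911 strongest peaks held 26.9% of the bound members and 30.9% of the other bound genes. The weakest peaks, taken as the same fraction of the list, held 34.6% of the bound members and 22.5% of the others. Over equal fractions of the list, from strongest to weakest, the member summits numbered 7, 7, 3 and 9. A very high standing thus belonged to a few promoters such as mRpL41, mRpS10 and mRpS23, and the rest were spread over the list.

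Nearly all of the bound promoters are shared. A gene was called divergent when another coding gene starts on the other strand, facing away, within 500 bp. Of the 73 genes 53 are divergent, which is 72.6% (Wilson 95% interval 61.4 to 81.5) against 27.4% of all protein-coding genes. Among the divergent genes 22 of 53 had an IDR summit, or 41.5% (29.3 to 54.9), where 35.3% of all divergent coding genes had one. Among genes with no coding neighbour that close, 4 of 19 had one (mRpL41, mRpL19, mRpL10 and mRpS29), or 21.1% (8.51 to 43.3), against 13.1%. The remaining gene, mRpL13, begins at the same annotated position and on the same strand as CG10602. In the IDR list the interval of the members' share includes the share of all genes within either arrangement. In the pooled list 45 of the 53 divergent members had a summit, 84.9% (72.9 to 92.1) against 69.7%, and here the interval lies above the share of all genes. Of the 19 without a neighbour 9 had one, 47.4% (27.3 to 68.3) against 35.5%. In the IDR list the difference between the 73 genes and all genes was 16.2 percentage points overall and smaller within either arrangement.

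**Figure D3:**
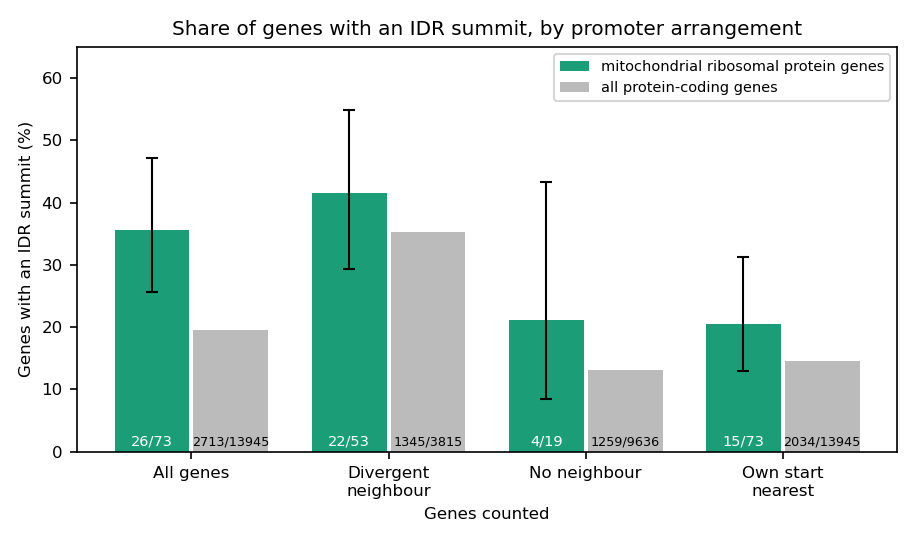
Percent of genes bound in the IDR list, for the mitochondrial ribosomal protein genes (green, with Wilson 95% intervals) and for all protein-coding genes (grey), over all genes, over divergent genes and over genes without a coding neighbour, and with the summit counted only for the gene whose start site is nearest. The counts stand at the foot of each bar, and the green bar is 35.6% over all genes and 41.5% over divergent genes.

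Each of the 26 bound genes had exactly 1 IDR summit. In 23 cases, or 88.5% (Wilson 95% interval 71.0 to 96.0), the summit also lay within 500 bp of the start site of another coding gene, where 53.4% of all bound coding genes shared theirs. Of the 26 bound genes 22 are divergent, and a divergent gene has a coding neighbour within 500 bp by definition. The share among all bound divergent genes was not counted, so the part of this arrangement was not tested. All 23 neighbours are on the opposite strand. The start sites of these pairs were 20 to 637 bp apart, with a median of 328 bp. In 19 of the 23 pairs the summit was upstream of both genes. The exceptions were mRpL23, mRpL11, mRpL18 and mRpL51, whose pairs have start sites at most 126 bp apart. The start site nearest to the summit was the member's own at 15 of the 26 and the neighbour's at 11. Counted by nearest start site, 20.5% of the 73 genes (12.9 to 31.2) were bound against 14.6% of all protein-coding genes.

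**Figure D4:**
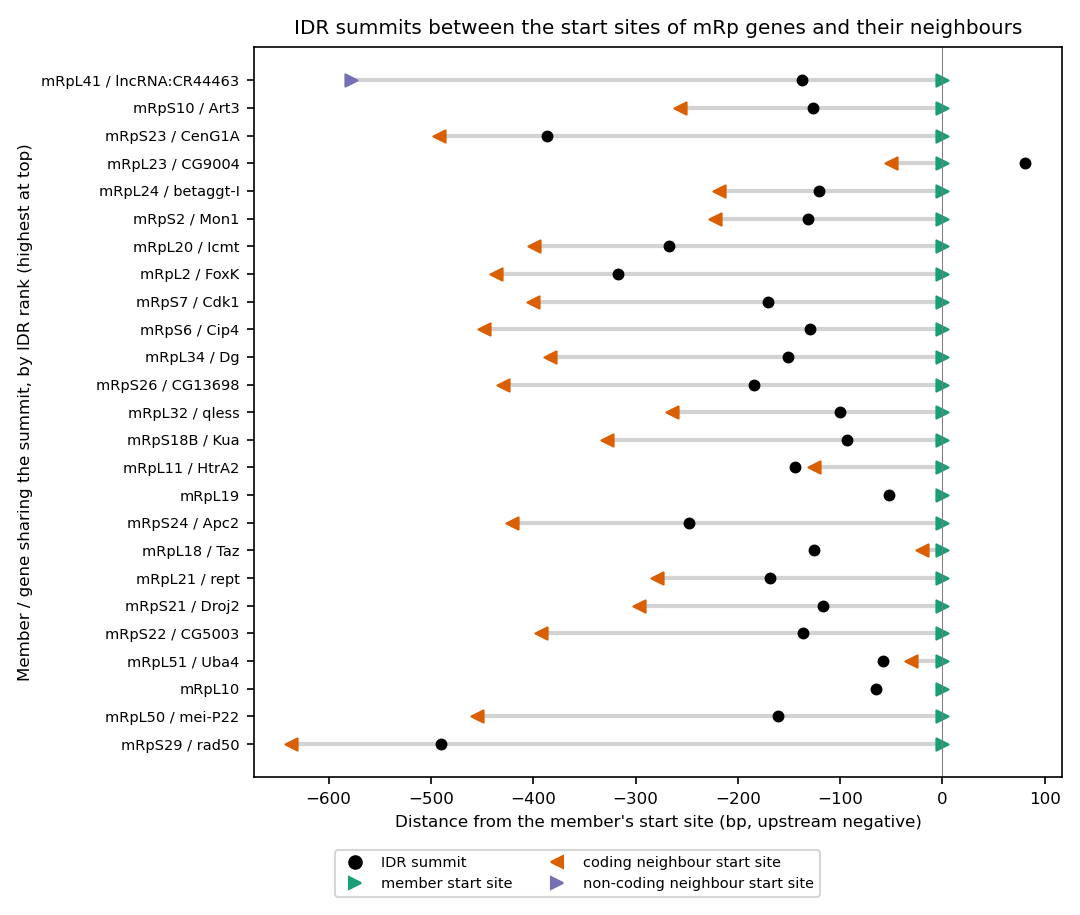
Position of the IDR summit (black) relative to the start site of 25 of the 26 bound mitochondrial ribosomal protein genes (green, at 0; mRpL37 is not drawn) and to the start site of the gene that shares it (orange for a coding gene, violet for a non-coding one), in bp along the member's strand, ordered by IDR rank. Most summits fall on the grey line between the start sites, and those of mRpL23, mRpL11, mRpL18 and mRpL51 fall outside it.

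The summits kept a narrow distance from the genes. Their median offset was −134 bp, the middle of the distribution ran from −170 to −117 bp, and 20 of the 26 lay between 50 and 200 bp upstream. The other 2687 bound coding genes had a median of −151 bp and quartiles of −235 and −81 bp. Summits were upstream of the member's start site at 25 of the 26 genes, 96.2% against 85.7% of all bound coding genes. Over the 23 pairs with a coding neighbour the median offset was −136 bp from the member and −147 bp from the neighbour. Single pairs were often unequal, as at mRpS23, where the summit is 387 bp upstream of the member and 105 bp upstream of the neighbour, and at mRpS6, where these distances are 129 and 319 bp.

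Genes of both subunits were bound. The large subunit had 15 of 47 genes with an IDR summit, or 31.9% (Wilson 95% interval 20.4 to 46.2), and the small subunit 11 of 26, or 42.3% (25.5 to 61.1). Genes whose number also exists in bacteria, taken as up to 36 in the large and up to 21 in the small subunit, were bound in 17 of 42 cases, or 40.5%. Those with higher numbers, added mostly in the mitochondrial lineage, were bound in 9 of 31, or 29.0%. The lowest share was that of large subunit genes with higher numbers, at 4 of 19, namely mRpL37, mRpL41, mRpL50 and mRpL51. The intervals of all these classes overlap, so a difference between them is not shown at these numbers.

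None of the 11 genes on the X chromosome had an IDR summit, where 18.6% of all coding genes on X did. For 11 genes a count of 0 leaves a Wilson upper bound of 25.9%, so a share like that of all X genes is within the interval. In the pooled list 7 of the 11 had a summit, 63.6% against 55.4% of coding genes on X. These are mRpL3, a large subunit gene at pooled rank 10591, mRpL16 at 12290, mRpL14, mRpL22, mRpL38, mRpL49 and mRpS14. The other 4 are mRpL30, mRpL33, mRpS25 and mRpS30. The count of 0 depends on the 500 bp limit. An IDR summit lay 513 bp from the start site of mRpL33 and another 527 bp from that of mRpS25. On 2L 7 of 12 members had an IDR summit, against 19.3% of all coding genes there. The counts were 7 of 17 on 3L against 20.6%, 8 of 21 on 3R against 20.7%, and 4 of 12 on 2R against 18.0%.

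A further 29 genes had a pooled summit but none in the IDR list. They are 23 genes of the large subunit (mRpL3, mRpL9, mRpL13, mRpL14, mRpL16, mRpL17, mRpL22, mRpL27, mRpL28, mRpL35, mRpL36, mRpL38, mRpL39, mRpL42, mRpL43, mRpL44, mRpL47, mRpL48, mRpL49, mRpL52, mRpL53, mRpL54 and mRpL55) and 6 of the small (mRpS11, mRpS14, mRpS16, mRpS17, mRpS28 and mRpS31). Their best pooled ranks ran from 7701 to 29401, with a median of 11333. Replicate 1 had a summit at 28 of the 29, replicate 2 at 16 and both at 15. As among the bound genes, most are divergent, 23 of 29. Of all 73 genes 72.6% are divergent, and of all protein-coding genes 27.4%. Replicate 1 was thus the list that more often held these weaker promoters. It also called more of all protein-coding genes, 47.2% against 42.1% in replicate 2. The same counts for other coding genes with a pooled summit only were not made.

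The IDR list is the top of the pooled list by signal, so its end divides like promoters. Just inside it was mRpS29 at 7245. Just outside, mRpL9 ranked 7701 in the pooled list, 9879 in replicate 1 and 5570 in replicate 2, at −69 bp, and no other gene starts within 500 bp of that summit. mRpS16 ranked 7965 in the pooled list and 8052 in replicate 1, beside cg, with no replicate 2 summit. mRpL54 ranked 7998, with 7505 in replicate 1 and 9696 in replicate 2, beside CG15653. mRpL43 (8035) and mRpL47 (8243) followed, also with neighbours within reach of the summit. Of these 5, all but mRpL9 had their summit between 133 and 143 bp upstream.

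Some of these weaker promoters lie beside genes of known function. mRpL35 (pooled rank 11452) shares its summit with Mitofilin, an organizer of the inner membrane. mRpL55 (23695) shares its summit with ATPsynD, a subunit of the ATP synthase, and mRpL39 (8695) with Prosbeta2, a catalytic subunit of the proteasome. mRpL53 (9845) lies beside AGO1, the Argonaute protein of the microRNA pathway, and mRpL44 (9136) beside Snr1, a subunit of the Brahma remodelling complex. mRpS17 (13193) lies beside Nop60B, the pseudouridine synthase of the nucleolus. These 6 pairs were chosen after their values were seen.

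A replicate list alone held summits at 4 genes. mRpL12, whose bacterial relative forms the ribosomal stalk, had a summit of rank 9951 in replicate 1 at −42 bp and another of rank 20009 in replicate 2 at −316 bp. mRpL15 had one of rank 21192 in replicate 1 at −93 bp. mRpS5 had one of rank 6304 in replicate 2 at −55 bp, and mRpS9 one of rank 17900 in replicate 2 at 78 bp. The replicates do not share a summit at any of these 4.

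No list had a summit near the remaining 14 genes. They are mRpL1, mRpL4, mRpL30, mRpL33, mRpL40, mRpL45, mRpL46, mRpS18A, mRpS18C, mRpS25, mRpS30, mRpS33, mRpS34 and mRpS35. Their nearest pooled summit was 513 to 79529 bp away, with a median of 1988 bp. At mRpL33 (513 bp) and mRpS25 (527 bp) a pooled summit that is also in the IDR list fell just beyond the limit. Of the 14, 7 are divergent and 7 have no coding neighbour. The family of the bacterial S18 protein was split, since mRpS18B was bound and mRpS18A and mRpS18C were not, and mRpS18A is the farthest from a pooled summit among these 14, at 79529 bp.

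The A and T content that the printed sequences show held across most of the 26 summits. Within 50 bp of the summit the A and T bases made up a median of 74.8%, from 52.5% at mRpL18 to 84.2% at mRpL20, with a mean of 74.0% ± 6.71 (SD, n = 26 summits). The flanks centred 250 bp to each side had a median of 57.8%, and the centre was the richer at 23 of the 26, or 88.5%, where this held for 80.5% of the other 2210 IDR summits at coding promoters and 87.3% of the divergent ones among them. The exceptions were mRpL18, mRpL10 and mRpL50. At the other 2210 IDR summits within 500 bp of a coding start site the median was 69.3% and the mean 67.8% ± 9.53 (SD). At the 661 of them shared by divergent genes the median was 72.3%. The longest run of A and T within 50 bp had a median of 13 bp at the members and 11 bp at the other promoters. At the 661 summits shared by divergent genes this median was 12 bp. Among the members the run reached 30 bp at mRpL20 and 24 bp at mRpL24 and mRpS29. The spread of the members lies within that of the other promoters.

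**Figure D5:**
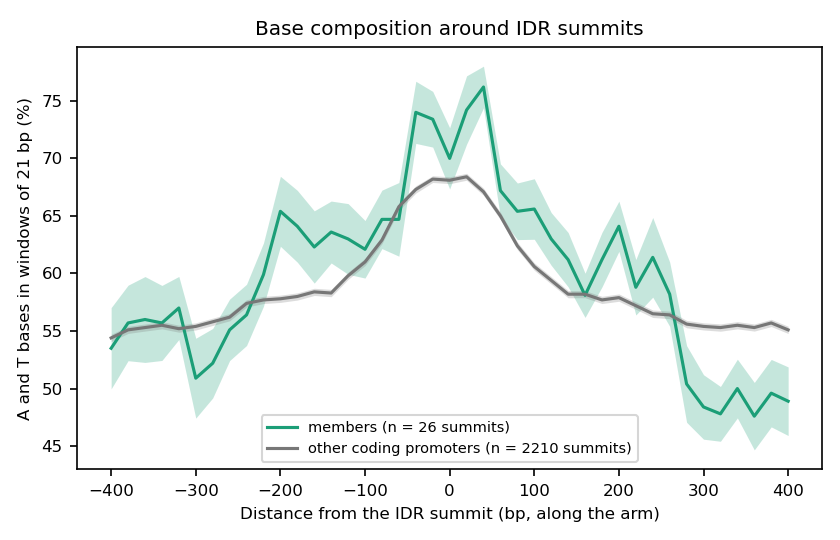
Mean percent of A and T bases in windows of 21 bp from 400 bp on 1 side of the IDR summit to 400 bp on the other, along the chromosome arm, for the 26 summits at mitochondrial ribosomal protein genes (green) and the 2210 other IDR summits at coding promoters (grey). Bands are the standard error over summits; both curves rise around the summit, where they stand at 70.0% ± 2.66 and 68.1%, and the green curve peaks at 76.2% at 40 bp. The green curve is above the grey at −200 bp (65.4% and 57.8%) and below it at −300 bp (50.9% and 55.4%) and 300 bp (48.4% and 55.4%).

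Short motifs known from fly core promoters were searched on both strands in the promoters of the 73 genes, from 250 bp before to 50 bp after the outermost start site. The DNA replication-related element TATCGATA, the site of the factor DREF, was in 15 of the 73 promoters, 20.5% against 9.37% of all coding promoters of the same length. Its shorter form TATCGA, which the longer one contains, was in 36, or 49.3%, against 27.7%. The longer form was in 26.9% of the promoters with an IDR summit and in 17.0% of those without, and the shorter form in 42.3% and 53.2%. The core of motif 1, GGTCACAC, was in 8 (11.0% against 7.71%) and the E-box CACGTG in 5 (6.85% against 4.24%). TATAAA was in 34 (46.6% against 45.9%), while GAGAGA (6.85% against 12.3%) and the initiator letters TCAGT (38.4% against 51.6%) were in fewer of the 73 than of all promoters. A run of 6 A bases was in 47, or 64.4%, against 50.6%. The letters of the DREF site thus stood in a larger share of these promoters than of all promoters, with or without an IDR summit. Divergent genes make up 72.6% of the 73 and 27.4% of all coding genes. Motif shares among divergent genes alone were not counted, so the part of this arrangement was not tested.

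The same letters were then counted within 50 bp of the 26 summits and of the 2210 other summits at coding promoters. TATCGATA was at 1 of 26 summits, that of mRpL19, and at 1.49% of the other 2210. TATCGA was at mRpL19 and mRpL10, 7.69% against 6.20%. TATAAA was at 6 (mRpL23, mRpS7, mRpL37, mRpL19, mRpL51 and mRpS29), 23.1% against 24.8%, and the run of 6 A bases at 8, 30.8% against 31.8%. TCAGT was at mRpL2 only, 3.85% against 15.7%. GGTCACAC, CACGTG and GAGAGA were at none of the 26, against 0.950%, 0.860% and 4.21%. Both genes with TATCGA at the summit are the ones that hold their summit alone. Their summits, at −52 and −65 bp, also lie nearer to the start site than the member median of −134 bp. A link of the letters to either trait was not tested.

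Genes that act with the mitochondrial ribosome were counted by the same rule. bonsai and tko, the ribosomal protein genes outside the symbol rule, had no summit in any list. Of 47 other nuclear genes for mitochondrial gene expression 12 had an IDR summit, or 25.5%, against 19.5% of all coding genes. A pooled summit stood at 26 of the 47, where 45.3% of all coding genes had one. The list for RNA processing and stability, which also includes mtDNA-helicase, had 5 of 11 genes bound, or 45.5%. Among them, PNPase, an RNA-degrading enzyme, ranked 7 with its summit at 79 bp, SLIRP2, an RNA-binding protein gene, ranked 80 at −113 bp, and SLIRP1 ranked 1260 at −199 bp. scu, a dehydrogenase that is also part of mitochondrial RNase P, ranked 3795, and the helicase gene Suv3 ranked 6170. PNPase thus ranked between mRpL41 and mRpS10.

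Of 11 genes listed as translation factors, mIF2 (rank 3817) and mEFTu1 (rank 5963) were bound. That is 18.2%, against 19.5% of all coding genes. The 11 include mTTF, which is also counted among the transcription genes and had no summit in any list. Of 4 genes of assembly and ribosomal RNA modification, Mrm2 (rank 3389), a ribosomal RNA methyltransferase, and mTerf5 (rank 4850), of the family of mitochondrial transcription termination factors, were bound. Among 18 genes of mitochondrial aminoacyl-tRNA synthesis 3 were bound, or 16.7%, namely GatA (rank 2211), CysRS-m (rank 4744) and ArgRS-m (rank 7498). Of 4 genes of mitochondrial transcription 0 were bound. TFAM, which packages the mitochondrial genome, had a pooled summit at rank 27475, and PolrMT, the mitochondrial RNA polymerase, a replicate 2 summit at rank 9683. PNPase, scu, mIF2 and mEFTu1 shared their IDR summit with no other gene, and the other bound genes of this list shared theirs. At GatA the summit was at −68 bp of the gene and −6 bp of the neighbour. At CysRS-m these offsets were −104 and −64 bp, so at both genes the neighbour's start site was the nearer. Divergent genes of this list were bound in 6 of 26 cases, or 23.1%, below the 35.3% of all divergent coding genes. Those without a neighbour were bound in 4 of 18, or 22.2%, above the 13.1% of all such genes. The gap between arrangements seen among the 73 ribosomal protein genes was not seen in this list, and the difference was not tested.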

How the data were processed

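Peak lists from whole pupae of 2 biological replicates in 1 group were used. The authors called each replicate list and the pooled list against a control alignment and made the IDR list from these lists, on dm6, per the labels and the descriptions that came with the files. For the aligner and the peak caller, names were not given in the sources used here. Depth is unknown. The authors deposited for each peak a signal score, whose scale is not stated, a −log10 q-value and a summit offset from the interval start. The signal score gave ranks and nothing else. As deposited, the −log10 q-value is at its ceiling of 4.23 in all IDR peaks and falls to 0.735, 0.146 and 0.405 in the replicate 1, replicate 2 and pooled lists, so weak calls are included. Start sites came from Ensembl release 115, which is on the same assembly as the sequence. Summits were assigned with Python 3.11.15 and pandas 2.3.3, and the assignment was tested on simulated data. Intervals are Wilson 95% intervals. No significance test was made: there is 1 group, and the 73 genes, though chosen by symbol alone, and the gene lists were chosen with earlier results of these data known. All 73 genes are named, bound genes with their ranks and offsets, as are the genes that share their summits, except 1 that is not reported here, and the bound genes of a list of mitochondrial gene expression genes. Alternatives were other distances, lists and windows and the top peaks of 1 replicate. Names on that list that matched no current symbol were left out.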

Additional observations from a re-analysis of the deposited data

How the results depend on the processing

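Of 80 alternative values for 14 results, 58 moved by less than the limits set, 22 moved by more and 0 reversed. Only the median offset and the excess over all coding genes could change sign, so the other results could not reverse. The choice of list moved most. With the 1911 strongest IDR peaks, 7 genes were bound, 3 with their own start site nearest, 7 with a shared summit, 4 of the large and 3 of the small subunit, 6 with and 1 without a neighbour; the excess over all coding genes was 3.59 percentage points and the median A and T content 79.2%. With the pooled list these values were, in the same order, 55, 37, 49, 38, 17, 46, 9, 30.0 percentage points and 67.3%. Counting only the nearest start site left 15 genes and an excess of 5.96 percentage points. With neighbours up to 1000 bp away, 2 bound genes had none in place of 4. A window of 100 bp each side gave 70.9% A and T. The top peaks of replicate 1 or 2 alone bound 21 and 27 genes, and with a q-value of 0.05 or less the pooled list had a summit at 50 genes (68.5% against 38.5% of all coding genes), replicate 1 at 51 (69.9% against 44.2%) and replicate 2 at 33 (45.2% against 28.3%). Ranks of 22 summits could be compared within 100 bp, 15 within 50 bp and 23 within 200 bp. No paired analysis was possible because there is 1 group. Depth is unknown, so an absent summit does not show that a promoter was unbound.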

Other observations

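Beyond 500 bp from the start sites, 1 of the 73 genes held IDR summits in its body. The share of all coding genes with such summits was not counted. mRpS9, on the minus strand of 3R from 7889277 to 7902667, had a summit of rank 659 at 7027 bp and another of rank 5567 at 9804 bp from its start site, and the start site itself had a summit in replicate 2 only. In mRpL27, on the minus strand of 2L from 4458595 to 4459638, a pooled summit at 4458621 ranked 7655. It lay 981 bp from the start site, close to the far end of the gene. Whether other genes start near any of these body summits was not examined.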
